A study of Mus musculus with 14 samples.

Results

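The Id genes Id1, Id2, Id3 and Id4 and the transcripts that flank them were followed in the heads, taken whole, of E12.5 mouse embryos that lacked, carried 1 copy of or carried both copies of Zcchc8. For each Id gene the locus with the highest mean FPKM (fragments scaled by transcript length and library total, so that levels can be set side by side between genes) among loci of its name was taken, so the level chose the locus and is given as a description. Flanking loci were chosen by position alone, as every locus with no gene name or with the name of a genomic clone (RP23- or RP24-) within 10 kb of the range that the files give for the Id gene. This gave 4 Id gene loci and 12 flanking loci out of 67811 loci in all, and 2 further loci that carry the name Id2 or Id3.

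Polyadenylated RNA was profiled with stranded libraries on the C57BL/6J background in 6 Zcchc8-/- (KO), 3 Zcchc8+/- (HET) and 5 Zcchc8+/+ (WT) libraries, which are called by genotype and the number in their label (KO1 to KO6, HET3 to HET5 and WT1 to WT5). The labels name no allele beyond these genotypes, and no agent was given. The libraries are not tied one by one to embryos, so p-values measure the spread between these samples, which may be technical.

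Id proteins carry a helix-loop-helix domain without the basic region that contacts DNA. They pair with E proteins such as those encoded by Tcf3, Tcf4 and Tcf12 and so keep them from their tissue-restricted partners, which delays differentiation. Their genes are well-known direct targets of bone morphogenetic protein (BMP) signalling through SMAD proteins, and in the embryonic head they are active in neural progenitors, mesenchyme and vessels. ZCCHC8 holds together the nuclear exosome targeting complex, which feeds unstable RNAs made upstream of promoters, in the antisense direction or at enhancers into the nuclear RNA exosome.

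The main flanking signal at Id3 lay upstream of the gene and on the other strand, so the sequence around the RefSeq starts of the Id genes is shown. RefSeq promoters (GRCm38.p6, the build of the files, 250 bases before to 50 bases after the RefSeq start, written in the direction of the gene) were held for 3 of the 4 genes, Id2 at chr12:25096043-25096342 on the minus strand, Id3 at chr4:136143572-136143871 on the plus strand and Id4 at chr13:48260866-48261165 on the plus strand. The RefSeq start is not the start of the GENCODE M21 gene from which distances are counted elsewhere, and it lies 1048 bases downstream of it at Id2, 325 bases downstream at Id3 and 112 bases upstream at Id4. The stretches of Id2 and Id3 therefore lie within the GENCODE genes. Capitals mark CCAAT boxes on either strand (CCAAT or ATTGG) and the GC-rich element GGCGCC known from BMP-responsive genes, and the 2 motifs share no base here.
Id2: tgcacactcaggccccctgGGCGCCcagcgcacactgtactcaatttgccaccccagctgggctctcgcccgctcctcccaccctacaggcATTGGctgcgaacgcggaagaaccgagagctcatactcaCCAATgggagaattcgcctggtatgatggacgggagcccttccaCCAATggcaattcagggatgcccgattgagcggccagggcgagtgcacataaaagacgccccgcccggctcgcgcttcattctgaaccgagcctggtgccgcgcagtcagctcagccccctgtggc
Id3: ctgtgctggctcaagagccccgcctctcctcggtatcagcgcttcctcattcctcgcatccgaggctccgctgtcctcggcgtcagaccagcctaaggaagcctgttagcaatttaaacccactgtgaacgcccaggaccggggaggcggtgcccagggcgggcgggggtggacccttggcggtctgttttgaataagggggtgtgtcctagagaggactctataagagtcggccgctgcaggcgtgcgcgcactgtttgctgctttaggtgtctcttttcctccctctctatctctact
Id4: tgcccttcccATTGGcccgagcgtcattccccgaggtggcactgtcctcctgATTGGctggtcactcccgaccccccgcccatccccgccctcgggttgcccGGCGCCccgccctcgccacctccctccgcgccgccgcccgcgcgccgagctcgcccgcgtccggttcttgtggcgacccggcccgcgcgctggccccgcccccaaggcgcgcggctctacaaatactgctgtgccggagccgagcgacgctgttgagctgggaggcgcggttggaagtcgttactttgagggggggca
The Id2 promoter held 3 CCAAT boxes and 1 GGCGCC, and that of Id4 held 2 CCAAT boxes and 1 GGCGCC. The Id3 promoter held neither, nor the TATA box motif TATAAA, the cyclic AMP response motif TGACGTCA, the SMAD palindrome GTCTAGAC, the E box CANNTG or the polyadenylation signal AATAAA on either strand. Of these last motifs the Id4 promoter held none either, and the Id2 promoter held only the E box, 1 time. Over 32851 RefSeq mouse promoters of the same length, 37.4% held CCAAT, 11.9% GGCGCC, 13.6% the TATA box motif, 1.79% the cyclic AMP response motif, 0.213% the SMAD palindrome, 72.3% the E box and 19.6% the polyadenylation signal. Guanine and cytosine made up 63.3% of the Id2 promoter, 60.0% of that of Id3 and 73.3% of that of Id4, against a median of 52.7% over all promoters.

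The files give no read counts, and total depth is unknown. Relative depth, read from the smallest FPKM steps and set to 1.0 in WT1, was 1.15 to 1.49 in KO, 1.23 to 1.32 in HET and 1.0 to 1.2 in WT libraries. Zcchc8 itself averaged 15.5 ± 3.91 FPKM in KO (SD, n = 6), 25.7 ± 1.65 FPKM in HET (SD, n = 3) and 39.7 ± 2.32 FPKM in WT libraries (SD, n = 5), in the order the labels give. By their Xist and Y-chromosome transcripts the male libraries were KO2, KO3, HET3, WT1, WT3 and WT4. KO2 and KO3 stood apart from the other 4 KO libraries in Id1, Id3 and Id4. Markers of the labelled tissue were present, with summed FPKM of 7 neural progenitor markers of 1427 to 1713 in KO, 1583 to 1664 in HET and 1542 to 1682 in WT libraries.

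Across the 14 libraries the order of levels was Id3, the Id1 locus, Id2 and Id4, with means of 135, 118, 72.4 and 46.7 FPKM. Id3 was above the Id1 locus in 14 of 14 libraries, by a median ratio of 1.13, which is close enough that the ranges of both loci overlapped within every genotype. The Id1 locus was above Id2 in 14 of 14 libraries by a median ratio of 1.66, and Id2 was above Id4 in 13 of 14 by a median ratio of 1.57, with KO2 as the exception. All 4 loci belong to the upper part of the data, between the 88.6th percentile (Id4) and the 96.9th percentile (Id3) of mean FPKM over the 18217 loci that passed a filter of at least 0.5 FPKM in at least 3 libraries.

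None of the 4 Id genes was called in a comparison of genotypes. In KO against WT, 0 of 4 were called at an adjusted p under 0.05, against 24.6% of all tested loci (19.0% higher and 5.61% lower in KO), by limma-trend on log2(FPKM + 0.1) with Benjamini-Hochberg adjustment over all tested loci. All tested loci include those without a gene name or with a clone name, of which 56.4% were called, and these raise that share. With 4 genes, 0 called cannot show that Id genes are called less often than named genes. In KO against HET 0 of 4 were called, against 22.3% of all tested loci, and in HET against WT 0 of 4, against 0.00549%, which is 1 locus.

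Id3, which is coded on chromosome 4 from 136143497 to 136145755 on the plus strand (GENCODE M21, 3 transcripts of 2 to 3 exons), had 162, 98.5, 98.8, 151, 157 and 165 FPKM in KO1 to KO6. It had 119, 139.9 and 128 FPKM in HET3 to HET5, and 128, 125, 135, 149 and 136 FPKM in WT1 to WT5. KO1, KO4, KO5 and KO6 lay above every WT library, and KO2 and KO3 lay below every HET and WT library. The log2 difference was 0.01 ± 0.14 (SE) in KO against WT, with a 95% confidence interval of -0.28 to 0.30 and an adjusted p of 0.965 in limma-trend. In KO against HET it was 0.07 (-0.27 to 0.41, adjusted p 0.817), and in HET against WT -0.06 (-0.41 to 0.29, adjusted p 1).

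Id1 could not be separated from H13, which codes for an intramembrane protease, and Mcts2, an imprinted retrogene within it, because the authors' locus holds all 3 names on chromosome 2 from 152669461 to 152737410. Id1 itself is coded at its end, from 152736251 to 152737410 on the plus strand. The locus had 114, 93.3, 90.6, 119.5, 131 and 147 FPKM in KO1 to KO6, 116, 123 and 113 FPKM in HET3 to HET5, and 108, 106, 127, 136 and 124 FPKM in WT1 to WT5. KO2 and KO3 were again the lowest of all libraries and KO6 was the highest. The log2 difference in KO against WT was -0.07 ± 0.11 (SE), with an interval of -0.31 to 0.17 and an adjusted p of 0.727 in limma-trend.

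Id2, coded on chromosome 12 from 25093799 to 25097140 on the minus strand, had 79.1, 55.3, 74.9, 80.0, 77.1 and 76.6 FPKM in KO1 to KO6. It had 69.2, 72.2 and 71.0 FPKM in HET3 to HET5, and 66.9, 70.8, 71.6, 74.2 and 75.2 FPKM in WT1 to WT5. KO2 was the lowest of all 14 libraries, and the groups overlapped. The log2 difference in KO against WT was 0.03 ± 0.08 (SE), with an interval of -0.14 to 0.20 and an adjusted p of 0.83 in limma-trend.

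Id4, coded on chromosome 13 from 48261228 to 48266026 on the plus strand, had 38.9, 61.5, 52.4, 39.8, 42.7 and 45.2 FPKM in KO1 to KO6. It had 48.6, 46.4 and 47.9 FPKM in HET3 to HET5, and 44.3, 42.7, 52.9, 46.8 and 43.7 FPKM in WT1 to WT5. Here KO2 was the highest of all libraries, opposite to its place in the other genes, and the groups overlapped. The log2 difference in KO against WT was 0.01 ± 0.10 (SE), with an interval of -0.21 to 0.23 and an adjusted p of 0.974 in limma-trend. Over all 4 genes the intervals of KO against WT reached from -0.31 (the Id1 locus) to 0.30 (Id3) on the log2 scale.

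**Figure D1:**
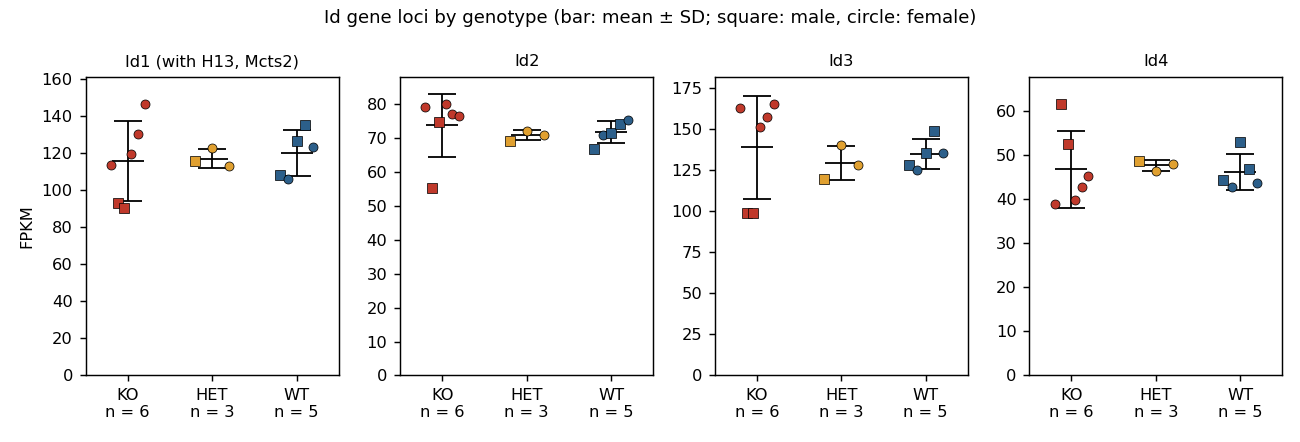
FPKM of the 4 Id gene loci (vertical axes, from 0) in KO, HET and WT libraries, 1 point a library, with bars for the mean ± SD and squares for males. The KO means lie within the range of the WT points in every panel, and the male KO points are the lowest for Id1 and Id3 and the highest of their group for Id4.

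The KO libraries that stood apart were the 2 males. Id3 averaged 98.7 FPKM in the 2 male KO libraries and 138 FPKM in the 3 male WT libraries, and 159 FPKM in the 4 female KO libraries and 130 FPKM in the 2 female WT libraries. With a difference for each sex, a fit chosen after these values were seen, Id3 fell by 0.48 on the log2 scale in KO males (adjusted p 4.0e-04, limma-trend), where 9.39% of all tested loci were called lower, and rose by 0.29 in KO females (adjusted p 0.00959, limma-trend), where 17.5% were called higher. The male minus female difference was -0.76 ± 0.10 (SE, adjusted p 0.0175, limma-trend), where 1.47% of all tested loci were called in that direction and 1.59% in either. For the Id1 locus the male difference was -0.42 (adjusted p 0.0196) and the female difference 0.15 (adjusted p 0.411), but the difference between them, -0.57 ± 0.16 (SE), did not pass (adjusted p 0.0885, limma-trend). The same difference was 0.30 for Id4 (adjusted p 0.212) and -0.24 for Id2 (adjusted p 0.362).

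With 2 male KO libraries, sex and the embryos these came from cannot be told apart. Without KO2 the difference of Id3 in KO against WT was 0.10 (adjusted p 0.597, limma-trend), and without KO3 it was 0.10 (adjusted p 0.591). For the Id1 locus it was -0.010 without KO2 and -0.001 without KO3 (adjusted p 0.966 and 0.995, limma-trend), and for Id4 it was -0.076 without KO2 and -0.030 without KO3 (adjusted p 0.554 and 0.872). Some marker sums set the same 2 libraries apart, though not every list or measure did. Over 7 cartilage markers they were 156 FPKM in KO2 and 158 FPKM in KO3, against 197 to 270.4 FPKM in the other KO libraries, with 216 to 240.1 FPKM in HET and 211 to 299.6 FPKM in WT libraries. Over 5 neuron markers they were 559 FPKM in KO2 and 504 FPKM in KO3, against 407.5 to 477 FPKM in the other KO libraries, with 467.5 to 528 FPKM in HET and 460.1 to 551 FPKM in WT libraries. Over 8 endothelial markers they were 129 FPKM in KO2 and 127 FPKM in KO3, against 136 to 145 FPKM in the other KO libraries, with 129 to 141 FPKM in HET and 138 to 147 FPKM in WT libraries. Over 10 head mesenchyme markers KO2 was the lowest with 760 FPKM, and KO3 with 861 FPKM lay among the other KO libraries at 835 to 931 FPKM. The neural progenitor sum was the highest of all libraries in KO2 (1713 FPKM) and the lowest in KO3 (1427 FPKM). The median log2 difference from the WT mean over the cartilage markers was -1.17, -1.25, -1.08, -1.15, 0.06 and -0.59 in KO1 to KO6. By that measure KO2 and KO3 did not stand apart. Over the endothelial markers it was -0.15 in KO2, -0.07 in KO3 and -0.13 in KO6. No marker of these lists was at 0 in all libraries, and their part in the Id gene levels was not tested. In whole heads, fewer cells of a type and less RNA per cell cannot be told apart.

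**Figure D2:**
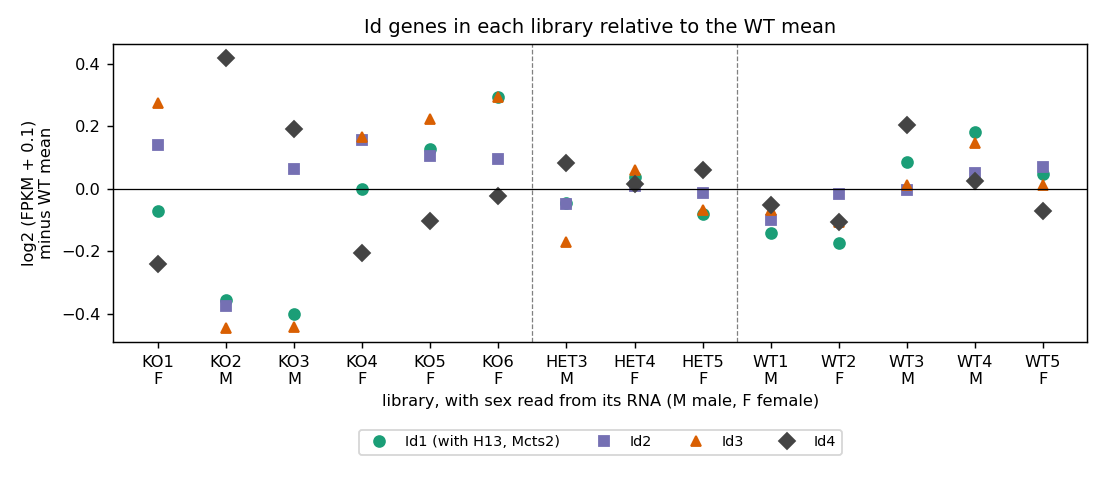
Difference of each library from the WT mean (vertical axis, log2 of FPKM + 0.1) for the 4 Id gene loci, with KO libraries at the left, HET in the middle and WT at the right. In KO2 and KO3, the male KO libraries, Id1 and Id3 lie below the WT mean and Id4 lies above it.

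The Id genes moved together in part. Over the 14 libraries Id1 and Id3 had a Pearson r of 0.86 and a Spearman rho of 0.76, and Id2 and Id3 an r of 0.71 and a rho of 0.80. Id4 ran the other way, with an r of -0.75 and a rho of -0.62 against Id3 and an r of -0.76 and a rho of -0.60 against Id2. Without the 2 libraries farthest from the median, r was 0.65 for Id1 and Id3, 0.57 for Id2 and Id3, -0.47 for Id3 and Id4, and -0.65 for Id2 and Id4. Between Id1 and Id4 the sign turned, with an r of -0.43 over 14 libraries and 0.23 without KO2 and KO3, so that relation rested on these 2. For Id1 and Id2 r was 0.54. These 6 relations are descriptions over libraries that share 3 genotypes and a scaling, and carry no test.

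The same measure, r of log2(FPKM + 0.1) over 14 libraries, was taken among 12489 named loci with a mean of at least 1 FPKM. The loci most like Id3 were a second locus named Msx1 (r = 0.94), Srsf9 (0.94), a splicing factor, and Crabp1 (0.94), a retinoic acid binding protein. The gene Msx1 codes for a homeobox factor of craniofacial mesenchyme. This second locus, with means of 17.7 FPKM in KO and 15.8 FPKM in WT libraries, is not the main locus of that name. Those most like the Id1 locus were Mocs3 (0.92), Twist2 (0.91), a mesenchymal transcription factor, and Wnt5b (0.91), a WNT ligand. For Id2 they included Frzb (0.91), a secreted WNT inhibitor, and Fzd7 (0.89), a WNT receptor. For Id4 they were AC121564.2 (0.90), Tbr1 (0.89), a factor of early cortical neurons, and Fut9 (0.87), a fucosyltransferase. The second Msx1 locus, Srsf9, Mocs3 and Twist2 were lowest in KO3, and Crabp1 and Wnt5b were lowest in KO2. Frzb and Fzd7 were lowest in KO2, and each of the 3 most like Id4 was highest in KO2. How far these r rest on KO2 and KO3 was not tested.

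While the Id genes themselves were not called, 3 loci around Id3 and Id4 had 1.59 to 6.70 FPKM in KO libraries and 0.0181 to 0.258 FPKM in HET and WT libraries. A locus without a name upstream of Id3, a locus named Id3 on the opposite strand and the clone-named locus RP24-328A10.1 in the range of Id4 rose in KO against WT and against HET. Of the 12 flanking loci, 3 belong to Id1, 1 to Id2, 3 to Id3 and 5 to Id4, and 4 passed the filter. Among these 4, the unnamed locus, RP24-328A10.1 and RP23-344L21.3 were called higher in KO against WT, where 55.6% of the 3948 tested unnamed or clone-named loci were called higher, 0.811% lower and 56.4% either way. These 3 were called higher in KO against HET too, where 53.0% of these loci were. The unnamed locus upstream of Id3 and RP24-328A10.1 passed the filter through KO libraries alone, as did 40.3% of tested unnamed or clone-named loci. The opposite-strand Id3 locus did so too, as did 43.0% of tested loci that repeat the name of a locus with a higher level. That these 3 were called is therefore no independent evidence.

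The unnamed locus lies on chromosome 4 from 136132852 to 136136355 and overlaps no gene of the GENCODE M21 annotation. The edge of this locus nearer to Id3 lies 7142 bases upstream of the annotated start of Id3. The order of the authors' locus numbers places the unnamed locus on the minus strand, opposite to Id3. It had 4.60, 5.84, 5.57, 5.68, 6.48 and 6.70 FPKM in KO1 to KO6, 0.119, 0.0642 and 0.119 FPKM in HET3 to HET5, and 0.0530, 0.0434, 0.0840, 0.0478 and 0.0293 FPKM in WT1 to WT5. No KO library overlapped any HET or WT library, and the males KO2 and KO3 lay among the female KO libraries. The log2 difference was 5.29 ± 0.14 (SE, interval 4.99 to 5.58, adjusted p 2.2e-12, limma-trend) in KO against WT and 4.88 ± 0.16 (adjusted p 3.9e-11) in KO against HET, on the scale of FPKM + 0.1, which understates a change from so low a level. In HET against WT it was 0.40 ± 0.17 (SE, unadjusted p 0.0302, adjusted p 1, limma-trend). Among the 3948 tested unnamed or clone-named loci, 9 had a larger difference in KO against WT.

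The opposite-strand Id3 locus carries the same range as Id3 itself, from 136139138 to 136145755, which reaches 4359 bases upstream of the annotated start, so where in that range its fragments lie is not known. It had 3.35, 3.18, 4.76, 4.77, 5.20 and 4.55 FPKM in KO1 to KO6, 0.0181, 0.0285 and 0.0898 FPKM in HET3 to HET5, and 0.219, 0.0312, 0.01996, 0.0831 and 0.125 FPKM in WT1 to WT5. Again every KO library was above every HET and WT library. The log2 difference was 4.56 ± 0.25 (SE, interval 4.04 to 5.09, adjusted p 1.1e-09, limma-trend) in KO against WT, 4.93 ± 0.29 (adjusted p 4.9e-09) in KO against HET and -0.37 ± 0.30 (adjusted p 1) in HET against WT. Of 512 tested loci that repeat the name of a locus with a higher level, 58.6% were called higher in KO against WT and 55.5% in KO against HET, and 6 had a larger difference than this one.

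Set against Id3 in the same library, both Id3 neighbours rose, and Id3 itself was not called. Both neighbours passed the filter through KO libraries alone, so their rise against Id3 is no independent evidence either. The unnamed locus stood at 4.19% of the level of Id3 in KO, 0.0778% in HET and 0.0383% in WT libraries. The opposite-strand locus stood at 3.1% in KO, 0.0352% in HET and 0.0711% in WT libraries. The log2 difference of the unnamed locus minus Id3 was 5.27 ± 0.20 (SE) higher in KO against WT (adjusted p 1.1e-10, limma-trend over 5812 pairs of a flanking and a named locus), where 55.5% of all pairs were called higher and 59.4% either way. It was 4.81 ± 0.24 (adjusted p 1.8e-09) in KO against HET, where 53.5% of pairs were called higher, and 0.46 ± 0.25 (adjusted p 1) in HET against WT, where 0 of 5812 pairs were called by limma-trend and 213 had an unadjusted p under 0.05. The opposite-strand locus minus Id3 was 4.55 ± 0.28 (SE) higher in KO against WT (adjusted p 2.3e-09, limma-trend over 504 such pairs of loci of 1 name, 59.3% of them called higher), a fit added after the values were seen. The unnamed locus rose by 0.72 ± 0.27 (SE) more than the opposite-strand locus in KO against WT (adjusted p 0.0318, limma-trend), a call that was lost without KO2 (0.64, adjusted p 0.0681), KO6 (0.70, 0.0554), WT1 (0.53, 0.0923), WT4 (0.72, 0.0556) or WT5 (0.60, 0.0881) and in the authors' normalized matrix (0.89, 0.279). The same contrast was -0.04 ± 0.31 (SE, adjusted p 0.924, limma-trend) in KO against HET. In HET against WT it was 0.77 ± 0.33 (SE, unadjusted p 0.0341, adjusted p 1, limma-trend). The unnamed and opposite-strand loci had at most 0.119 and 0.219 FPKM in HET and WT libraries, so all 3 contrasts depend on the 0.1 added before the log. Over the alternatives the contrast ran from -1.05 to 0.296 in KO against HET and from 0.131 to 1.939 in HET against WT.

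**Figure D3:**
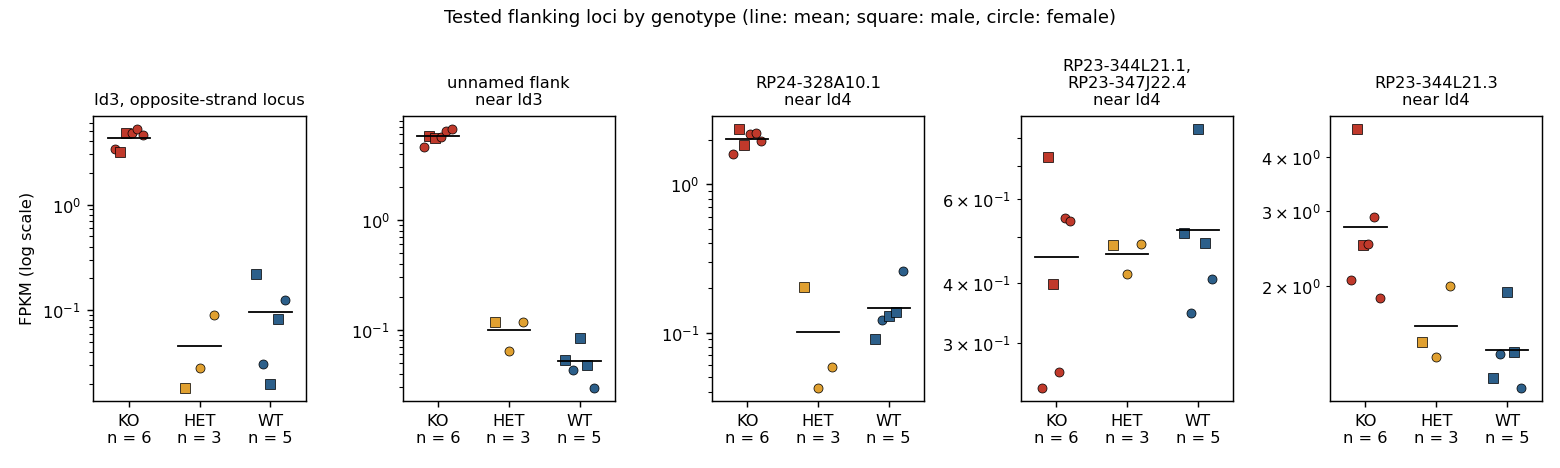
FPKM on log axes of the tested flanking loci and of the opposite-strand Id3 locus in KO, HET and WT libraries, 1 point a library, with a line at the mean and squares for males. In the first 3 panels every KO point lies above every HET and WT point, by more than the spread within any genotype.

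The other 2 unnamed loci near Id3 lie downstream, at 8723 and 9567 bases from its start, and were not tested. The nearer had 0.855 FPKM in KO6 and the farther 1.81 FPKM in HET3, and both were listed at 0 in every other library.

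Around Id4 the authors' range runs from 48044231 to 48266026 on chromosome 13, which is 221796 bases, and several loci share it. In the GENCODE M21 annotation it also holds the antisense gene A330033J07Rik and the long intergenic RNA genes Gm36346 and Gm49291 on the minus strand, so a level in this range cannot be tied to a position next to Id4. RP24-328A10.1, which by its number lies on the plus strand like Id4, had 1.59, 2.35, 1.84, 2.17, 2.21 and 1.94 FPKM in KO1 to KO6. It had 0.203, 0.0420 and 0.0589 FPKM in HET3 to HET5, and 0.0900, 0.122, 0.130, 0.137 and 0.258 FPKM in WT1 to WT5. Every KO library was above every HET and WT library. The log2 difference was 3.12 ± 0.21 (SE, interval 2.67 to 3.58, adjusted p 1.3e-08, limma-trend) in KO against WT, 3.47 ± 0.25 (adjusted p 3.6e-08) in KO against HET and -0.35 ± 0.26 (adjusted p 1) in HET against WT. It is less extreme than the Id3 neighbours among loci of its kind, since 576 of 3948 had a larger difference in KO against WT.

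RP23-344L21.3, which has the coordinates of the long intergenic RNA gene A330048O09Rik (48272413 to 48273884, minus strand), was present in every genotype. Its nearer edge lies 11185 bases downstream of the start of Id4. RP23-344L21.3 had 2.07, 4.66, 2.503, 2.505, 2.90 and 1.88 FPKM in KO1 to KO6, 1.49, 1.37 and 2.001 FPKM in HET3 to HET5, and 1.23, 1.39, 1.94, 1.41 and 1.16 FPKM in WT1 to WT5. KO2 was the highest, and KO6 lay below the highest HET and WT libraries. It rose by 0.86 ± 0.20 on the log2 scale in KO against WT (SE, adjusted p 0.00411, limma-trend), less than 2179 of the 3948 loci of its kind, a call that quantile normalization ended (0.52, adjusted p 0.0762). In KO against HET the difference was 0.69 ± 0.23 (SE, adjusted p 0.0477, limma-trend), and this call was lost on leaving out KO3, KO4, KO5, HET3, HET4, WT1, WT2, WT4 or WT5, with differences of 0.58 to 0.70 and adjusted p of 0.0528 to 0.198. It was also lost after quantile normalization (0.34, adjusted p 0.348), with a pseudocount of 1 (0.49, 0.0535), a filter of 1 FPKM (0.69, 0.0536), no filter (0.69, 0.112), the compared groups alone (0.69, 0.0826) and female libraries alone (0.46, 0.198).

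The locus named RP23-344L21.1 and RP23-347J22.4, on the minus strand in the range of Id4, was not called. It had 0.242, 0.731, 0.399, 0.262, 0.546 and 0.540 FPKM in KO1 to KO6, 0.481, 0.419 and 0.482 FPKM in HET3 to HET5, and 0.509, 0.347, 0.837, 0.485 and 0.408 FPKM in WT1 to WT5. The groups overlapped throughout. Its log2 difference in KO against WT was -0.18 ± 0.25 (SE, interval -0.71 to 0.34, adjusted p 0.662, limma-trend), and quantile normalization made it -1.63 (adjusted p 2.5e-04).

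Against Id4 in the same library, RP24-328A10.1 was 3.11 ± 0.23 (SE) higher on the log2 scale in KO than in WT (adjusted p 1.9e-08, limma-trend over all pairs) and RP23-344L21.3 was 0.86 ± 0.17 higher (adjusted p 4.1e-04). Since RP24-328A10.1 passed the filter through KO libraries alone, its rise against Id4 is no independent evidence. The pair of RP23-344L21.1,RP23-347J22.4 and Id4 did not pass (-0.19 ± 0.19, adjusted p 0.432). As a share of the level of Id4, RP24-328A10.1 stood at 4.32% in KO, 0.213% in HET and 0.32% in WT libraries, and RP23-344L21.3 at 5.89% in KO, 3.4% in HET and 3.09% in WT libraries. In HET against WT none of the 3 pairs was called (adjusted p 1 each). The 2 flanking loci of Id4 that failed the filter were low everywhere. RP23-347J22.3, which lies 1760 bases outside this range with the coordinates of Gm36101, averaged 0.0621 FPKM in KO, 0.0722 in HET and 0.0739 in WT libraries, and a minus-strand locus within it that is also named RP24-328A10.1 averaged 0.149 FPKM in KO, 0.105 in HET and 0.0960 in WT libraries.

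**Figure D4:**
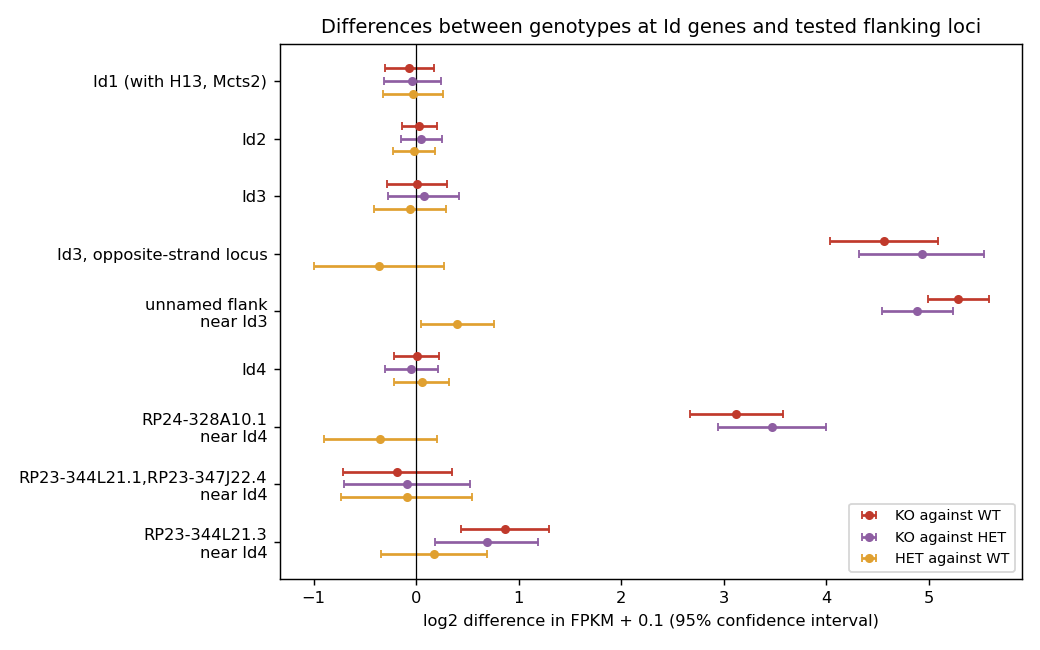
Log2 differences in FPKM + 0.1 with 95% confidence intervals (horizontal axis) for the Id genes and the tested flanking loci, for KO against WT, KO against HET and HET against WT. The intervals of the 4 Id genes include 0 in every comparison, and those of the unnamed Id3 neighbour, the opposite-strand Id3 locus, RP24-328A10.1 and RP23-344L21.3 lie above 0 in KO against WT.

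Near Id1 and Id2 no flanking locus passed the filter. Of the unnamed loci downstream of Id1, 1 had 8.17 FPKM in KO4 and 4.64 FPKM in KO5, the other had 0.509 FPKM in KO2 and 1.33 FPKM in KO4, and both were listed at 0 in every other library. They span 133 and 183 bases, and each is held up by 2 of 6 KO libraries. RP23-106A3.2, with the coordinates of the pseudogene Gm14162, had 0.0369 FPKM in KO6, 0.0401 FPKM in HET3 and was listed at 0 elsewhere. The unnamed locus near Id2 was above 0 in 4 of 6 KO, 0 of 3 HET and 1 of 5 WT libraries, with means of 0.0784 FPKM in KO and 0.0158 FPKM in WT libraries. The opposite-strand locus named Id2 was above 0 in 5 of 6 KO, 1 of 3 HET and 0 of 5 WT libraries, with a KO mean of 0.0734 FPKM, which is 0.0995% of the level of Id2. A locus at this level is far below the filter, and no difference was tested.

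The limit of 10 kb left the nearest loci outside it at 14692 bases from the range of Id1, 10055 from Id2, 64166 from Id3 and 24750 from Id4, while the farthest inside it lay at 8297, 8723, 7309 and 6387 bases. Outside it, the Id2 and Id3 loci were listed at 0 in all libraries, and the Id1 locus had 2.28 FPKM in WT1 and was listed at 0 elsewhere. The Id4 locus outside it averaged 0.333 FPKM in KO, 0.0789 FPKM in HET and 0.0780 FPKM in WT libraries.

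**Figure D5:**
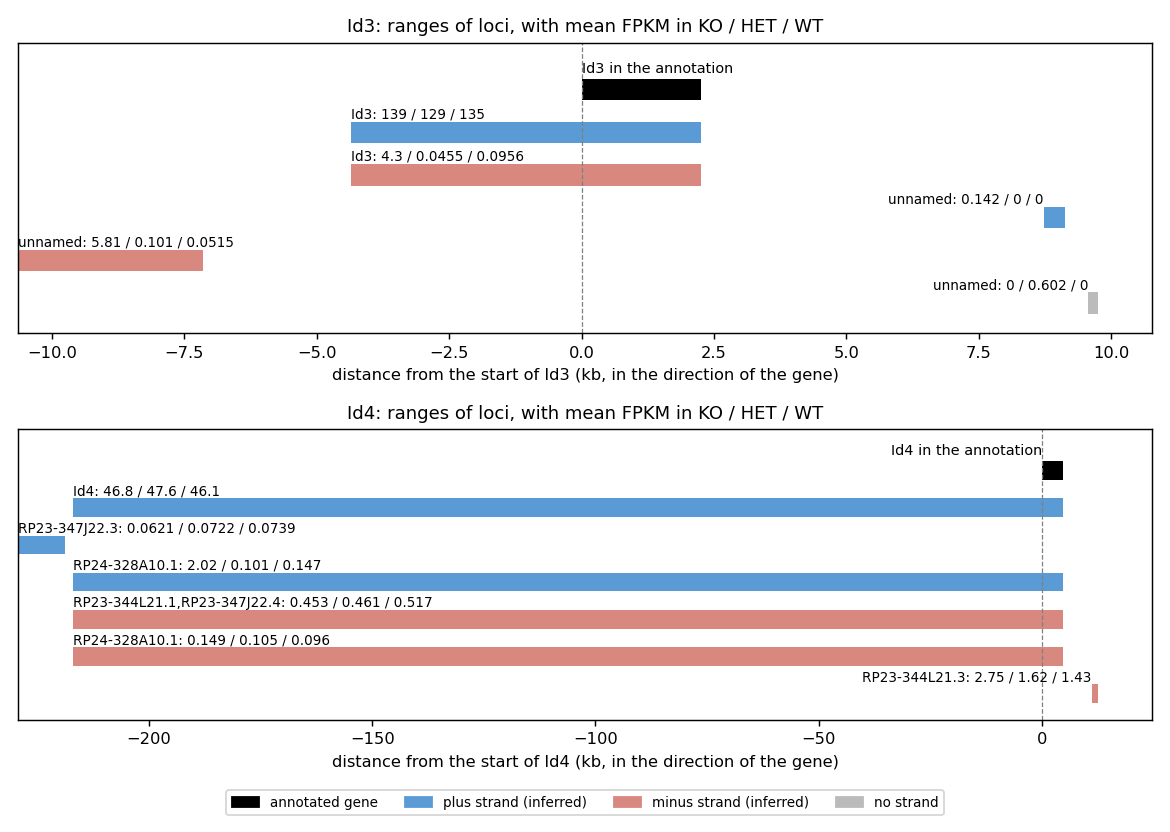
Ranges of the loci around Id3 (upper panel) and Id4 (lower panel) by distance from the annotated start of the gene in kb, colored by the strand inferred from locus numbers, with mean FPKM in KO, HET and WT beside each. At Id3 the 2 minus-strand loci have means of 4.30 and 5.81 FPKM in KO and of at most 0.101 FPKM in HET and WT, and at Id4 several loci share 1 long range.

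Some of the genes that act upstream and downstream of the Id proteins were called. Of 72 genes of BMP signalling and of helix-loop-helix partners, 69 were tested. In KO against WT 2 of these were higher and 5 lower (10.1% called), against 24.6% of all tested loci (19.0% higher and 5.61% lower). All tested loci include the unnamed or clone-named ones, of which 55.6% were called higher and 0.811% lower. They therefore raise the share called higher and reduce the share called lower. The share over named loci alone was not computed. The 10.1% therefore cannot show that the listed genes were called less often than named genes. The median log2 difference of the listed genes was -0.04, against 0.0 over all tested loci. In KO against HET 1 was higher and 4 were lower (17.9% of all tested loci were higher and 4.36% lower), and in HET against WT 0 of 69 were called by limma-trend.

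Of 8 BMP ligand genes 1 was lower, Gdf5, a ligand of joint and cartilage formation, with 1.28 ± 0.25 FPKM in KO (SD, n = 6) and 1.66 ± 0.13 FPKM in WT libraries (SD, n = 5, log2 difference -0.37, adjusted p 0.0455, limma-trend). That call was lost on leaving out any of KO1 to KO4, HET3 to HET5 or WT1 to WT5, with differences of -0.40 to -0.28 and adjusted p of 0.0505 to 0.115. Of 7 cartilage markers 3 were lower in KO against WT, with a median log2 difference of -0.94, and their part in the Gdf5 difference was not tested. Of 8 receptor genes 1 was lower, Acvr1, a type I receptor, with 12.7 ± 0.45 FPKM in KO and 14.2 ± 0.61 FPKM in WT libraries (-0.15, adjusted p 0.0171), a call lost without WT4 (-0.13, adjusted p 0.0546) and turned round in the authors' normalized matrix (0.12, adjusted p 0.157). Of 8 SMAD genes and inhibitors 1 was lower, Smurf1, a ubiquitin ligase that marks SMADs and BMP receptors for decay, with 15.5 ± 1.27 FPKM in KO and 17.6 ± 0.68 FPKM in WT libraries (-0.18, adjusted p 0.0283). Its call was lost without KO4, KO6, WT1, WT2 or WT3 (-0.19 to -0.16, adjusted p 0.0511 to 0.0758), and it had the other sign in the authors' normalized matrix (0.05, adjusted p 0.632).

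Of 9 tested antagonist genes 2 were lower. Bmper, a secreted BMP-binding protein, had 6.01 ± 0.51 FPKM in KO and 8.19 ± 0.69 FPKM in WT libraries (-0.44, adjusted p 1.2e-04, limma-trend), and the call was lost in the authors' normalized matrix (-0.05, adjusted p 0.662). Fstl1, a secreted follistatin-like protein that binds BMPs, had 148 ± 12.1 FPKM in KO and 176 ± 14.3 FPKM in WT libraries (-0.25, adjusted p 0.00699). Head mesenchyme markers moved in the same direction, with 4 of 10 lower in KO against WT and sums of 760 to 931 FPKM in KO and 928 to 1084 FPKM in WT libraries. Markers of other cell types were lower too, 5 of 8 of surface epithelium (median log2 difference -0.52), 4 of 8 of choroid plexus and roof plate (-0.30) and 2 of 6 tested of skeletal muscle (-1.09), while 0 of 8 endothelial markers were called by limma-trend and 0 had an unadjusted p under 0.05. The part of these cell types in the differences was not tested. Of the other BMP-responsive genes 0 of 10 were called, among them Msx1, with 37.8 ± 6.42 FPKM in KO and 33.3 ± 3.47 FPKM in WT libraries (0.17, adjusted p 0.339), which passed without KO2 (0.27, adjusted p 0.0188).

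Of the 3 E protein genes none was called, and Tcf3 had 124 ± 19.7 FPKM in KO and 119 ± 6.39 FPKM in WT libraries (0.05, adjusted p 0.779, limma-trend). Of 19 tested genes of tissue-restricted partners 1 was higher, Neurog1, a proneural factor of cranial sensory neurons, with 10.6 ± 2.30 FPKM in KO and 7.68 ± 0.91 FPKM in WT libraries (0.44, adjusted p 0.0354). That call was lost without KO1, KO2, KO4, KO5, KO6, WT1, WT2, WT4 or WT5 (0.36 to 0.44, adjusted p 0.0545 to 0.0995). Of 7 HES and HEY repressor genes 1 was higher, Hes3, a repressor of neural differentiation in progenitors, with 0.485 ± 0.0938 FPKM in KO and 0.293 ± 0.0463 FPKM in WT libraries (0.57, adjusted p 0.0135), and quantile normalization turned it round (-1.07, adjusted p 0.00529). Hes3 reached at most 0.312 FPKM in HET and 0.364 FPKM in WT libraries. It therefore passed the filter through KO libraries alone, so that it was called is no independent evidence.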

How the data were processed

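For each library the authors deposited FPKM values of 67811 loci, and for all libraries a matrix of log2 FPKM values that is blank wherever the FPKM is 0. Tools listed in the submitters' processing notes are TopHat2 2.1.0, Cuffdiff, Partek, FastQC 0.10.0 and bcl2fastq, with the build mm10, but not what each was used for. Which gene models, filters and strand setting were used is not stated there. An FPKM of 0 can stand for a locus with no fragment or for one without an estimate. The columns of the log2 matrix share their quantiles, so it served only as an alternative.

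Loci with at least 0.5 FPKM in at least 3 libraries were tested as log2(FPKM + 0.1) with limma-trend and robust moderation (limma 3.58.1, R 4.3.3), in 1 fit of 14 libraries with genotype as the only term, adjusted by the Benjamini-Hochberg method over 18217 loci at 0.05. Pairs of a tested flanking locus and a named locus within 10 kb were fitted in the same way as log2 differences. The scripts were tested on simulated data with known changes. Tables and figures were made with Python 3.11.15, pandas 2.3.3, numpy 2.4.6, scipy 1.17.1 and matplotlib 3.10.9.

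Coordinates are those of the files, written from 1, and genes come from GENCODE M21 on the same build. A locus's range is shared by all loci of an overlapping bundle. Strand was inferred from the order of locus numbers, which matched the annotation for 98.5% of 10395 singly named loci averaging 1 FPKM or more. Clone names were tied to genes only through equal coordinates. Genes that overlap on 1 strand share their fragments here.

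The members, the gene lists and the rule for named genes were chosen with earlier results of these data known. That rule takes the Id genes, all their flanking loci, the 3 named loci most correlated with each, Zcchc8, and in each list up to 3 called members or else the most abundant one. A locus that this rule names for Id2 is not reported here. The fits of a second locus minus the main locus of a name, of each sex and of female libraries alone were added after values had been seen. Alternatives were other pseudocounts, filters and scalings, the authors' matrix, sex or the replicate number as a covariate, fits of only the compared groups and leaving out each library in turn.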

Additional observations from a re-analysis of the deposited data

Results flagged for a closer look

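Of 18 groups of 4 to 10 libraries looked at, 3 held a library far from the others by Dixon's test, where chance gives about 1 in 20. KO2 had the lowest Id2 level of the KO libraries, 55.3 FPKM, against 74.9 to 80.0 FPKM in the other KO libraries. KO2 also had the highest level of RP23-344L21.3, 4.66 FPKM, against 1.88 to 2.90 FPKM in the other KO libraries. WT5 had the highest level of RP24-328A10.1 among WT libraries, 0.258 FPKM, against 0.0900 to 0.137 FPKM in the other WT libraries.

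The difference of Id3 in KO against WT differed between the sexes, by -0.76 on the log2 scale (male minus female, adjusted p 0.0175, limma-trend). Both male KO libraries were below all 3 male WT libraries, and all 4 female KO libraries were above both female WT libraries. The comparison rests on 2 male KO libraries and was chosen after the values were seen, and sex cannot be told apart from other differences between these embryos.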

How the results depend on the processing

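Under the 25 alternatives run, the 4 Id genes stayed uncalled in KO against WT, except Id3 in female libraries alone (0.286, adjusted p 0.00836, limma-trend). The unnamed Id3 neighbour (2.688 to 6.904), the opposite-strand Id3 locus (2.262 to 6.015) and RP24-328A10.1 (1.392 to 3.835) stayed called higher in KO against WT under all of them, and pseudocounts, scaling and the authors' matrix moved their size. These 3 loci passed the filter through KO libraries alone, so that they stayed called is no independent evidence. Without a filter the pairs were not fitted.

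Over all tested loci, KO against WT had 3463 higher and 1022 lower. A filter of 1 FPKM gave 2265 higher, the authors' matrix 6988 higher and 270 lower, quantile normalization 3801 lower and female libraries alone 578 lower. Leaving out each library gave 3232 to 3620 higher and 675 to 1247 lower, with 676 without KO4 and 675 without WT4. The share of calls that were higher was 77.2% as deposited, 96.3% in the authors' matrix, which moved the median over loci by 0.21, and 38.1% with quantile normalization. KO against HET had 3265 higher and 794 lower, with 2157 higher under a filter of 1 FPKM, 2092 higher and 3256 lower after quantile normalization, and 217 lower in the authors' matrix, 451 lower with the compared groups alone and 480 lower in females. Leaving out each library gave 2837 to 3398 higher and 267 to 932 lower, with 525 without KO4, 267 without HET3 and 354 without HET4. HET against WT had 1 higher and 0 lower, with 0 higher under pseudocounts of 0.5 and 1, a filter of 1 FPKM, the authors' matrix and females alone, and 2 higher without a filter, after quantile normalization and with the compared groups alone. Lower counts there were 1 with the compared groups alone and 2 in females, and leaving out each library gave 0 to 2 higher and 0 to 1 lower.

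Of the pairs, 3226 were higher and 228 lower in KO against WT, with 2108 higher and 119 lower under a filter of 1 FPKM and 1155 lower after quantile normalization. In KO against HET 3109 were higher and 164 lower, with 2046 higher and 95 lower under a filter of 1 FPKM, 1870 higher in the authors' matrix and 878 lower after quantile normalization. Leaving out each library gave 0 to 1 pairs higher and 0 to 2 lower in HET against WT. The unnamed Id3 neighbour minus the opposite-strand locus turned round in KO against HET with a pseudocount of 1 (0.296, adjusted p 0.044). In the authors' matrix Acvr1 turned round in KO against WT (0.116) and KO against HET (0.074), as did Smurf1 in KO against WT (0.047), and after quantile normalization Hes3 did so in KO against WT (-1.072) and KO against HET (-1.023). The cause was not tested.

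No pairing by replicate number was seen, as the correlations of same-numbered libraries ran from -0.11 to 0.10 over 11 pairs. These values alone cannot show that the numbers carry no pairing. With the replicate number as a block, KO against WT had 3198 higher and 645 lower, KO against HET 2995 higher and 409 lower and HET against WT 0 higher. The calls of Gdf5, Acvr1, Smurf1, Fstl1 and Neurog1 were not made with that block, and those of the 3 called flanking loci in KO against WT were. Without read counts, no floor can be given for the values at or near 0.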
